A study of Mus musculus with 2 samples.

Results

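Endothelial cells line blood and lymphatic vessels, and the 32 genes described here are known for their expression in them. They were followed in the ventral prostate of mice lacking U19/Eaf2, an androgen-induced partner of transcription elongation factors that is studied as a prostate tumour suppressor. The genes form a fixed list of names, and a probe set stood for a gene when the platform annotation gave it that gene symbol and no other. By this rule all 32 were found, among 18193 genes on the array, with 58 probe sets between them. The array labelled knockout carried RNA of C57BL/6J males aged 3 months with the genotype U19/Eaf2 -/-, and the wild-type array that of U19/Eaf2 +/+ males of the same strain and age. There was 1 array for each genotype, so no test between genotypes was possible and every comparison describes these 2 arrays. The labels speak of prostates in the plural without saying whether animals were pooled, and they do not say which part of the gene was deleted.

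Vessels are held together by junction proteins such as VE-cadherin and by immunoglobulin-type adhesion molecules, and their identity is set by ETS and SOX transcription factors. Their surface carries receptors for growth factors, peptides and guidance cues, and capillaries add proteins for transport across the wall. In the prostate, vessels run in the stroma between the glandular ducts, beside smooth muscle and fibroblasts, and the vasculature of the gland is known to depend on androgen. In RNA from whole tissue, fewer endothelial cells and less RNA of a gene per cell cannot be told apart.

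The signal is the deposited linear brightness of a probe set, with each array scaled as a whole to the same trimmed mean. The median over all probe sets was 154 on the array labelled knockout and 177 on the wild-type array. Low signals were handled with a floor of 166, the median of the non-control signals of both arrays. A gene was counted as measured when its brightest probe set reached the floor on at least 1 array, and lower values were raised to the floor, so that a ratio with such a value is a bound. Eaf2 itself read 702 on the array labelled knockout and 691 on the wild-type array, in a probe set whose place relative to the deletion is not known. The genotype is therefore given as labelled. Luminal epithelial genes, which define the secretory gland, were all measured on both arrays, with summed signals over 8 genes of 109186 on the array labelled knockout and 108565 on the wild-type array. The 3′ over 5′ ratio of the Actb control probe sets, a guide to RNA integrity, was 1.65 on the array labelled knockout and 1.25 on the wild-type array.

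Of the 32 endothelial genes, 17 (53.1%) were measured, against 64.2% of all genes. The other 15 stayed below the floor on both arrays. The measured genes were centred close to no difference: 9 were lower on the array labelled knockout and 8 were higher, and the median log2 ratio was -0.02. Over all 11671 measured genes, 53.0% were lower, 47.0% were higher and the median was -0.03. Emcn, Esam and Calcrl had signals at least 1.5-fold lower there, and 0 of the 17 were at least 1.5-fold higher. Among all measured genes 6.26% were at least 1.5-fold lower and 4.69% at least 1.5-fold higher. None of the 17 differed by 2-fold, as 0.883% of all measured genes did in the lower direction and 0.591% in the higher. The count of 3 depended on the scaling, since under quantile normalization 0 genes and under loess only Emcn passed 1.5-fold, a log2 ratio of 0.585 in size. The ratios themselves stayed close to that threshold, at -0.57 for Emcn, -0.58 for Esam and -0.51 for Calcrl under quantile normalization and at -0.59, -0.58 and -0.54 in the same order under loess. The split of directions turned with it too, to 6 lower and 11 higher under loess and, among the 18 genes measured under quantile normalization, to 7 lower and 11 higher. The median was above 0 in both cases and under median centring. The genes that changed sign between these scalings were Ramp2, Lyve1 and Fli1. Without suffixed probe sets, those whose names end in _s_at, _x_at or _a_at, only Esam remained past 1.5-fold, because Emcn and the measured probe set of Calcrl are of that kind. With 50 added to each signal, Calcrl fell short of 1.5-fold too, at -0.55.

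**Figure D1:**
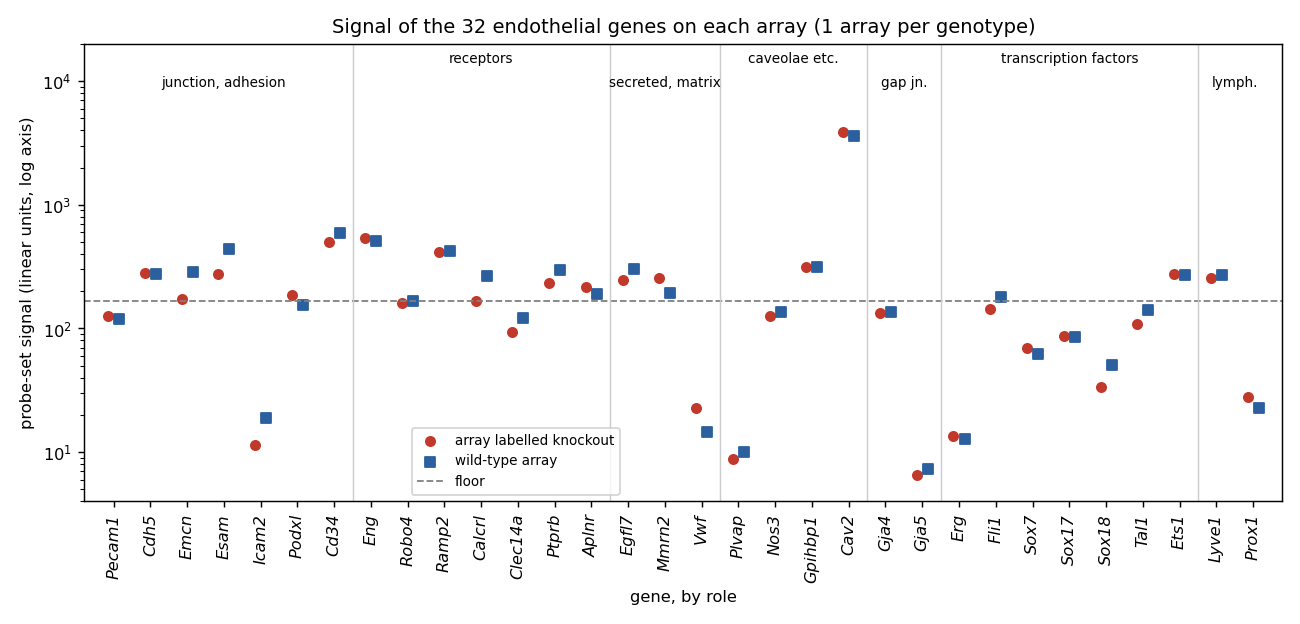
Signal of each of the 32 endothelial genes in its brightest probe set, on a log axis, with the array labelled knockout as red circles and the wild-type array as blue squares, 1 array each. The dashed line is the floor of 166, above which 15 genes lie on both arrays and a further 2, Fli1 and Podxl, on 1 array only.

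Signals near the floor leaned to lower values on the array labelled knockout across the array as a whole. Apart from Cav2, the measured endothelial genes had a geometric mean signal over the arrays between 161 and 544. Of the 4523 measured genes in that range, 62.5% were lower on the array labelled knockout and 11.0% were at least 1.5-fold lower. The share at least 1.5-fold higher was 4.4%, and the median log2 ratio -0.11. The 3 endothelial genes past 1.5-fold were 17.6% of the 17 measured. All 3 lay in this range, as the plot of ratio against mean signal shows.

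**Figure D2:**
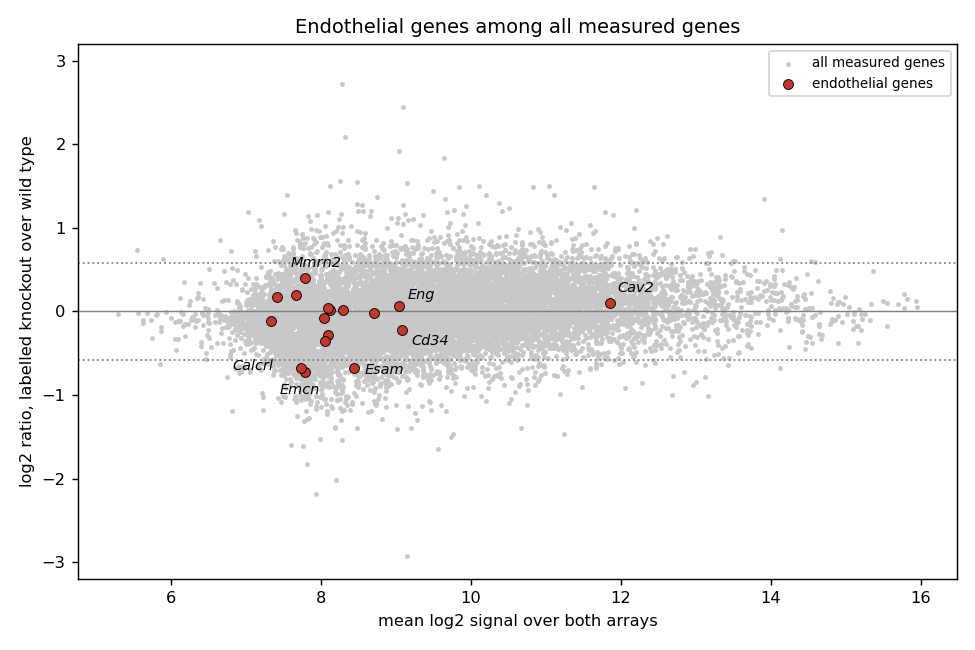
Log2 ratio of signal, array labelled knockout over wild-type array, against mean log2 signal for the 11671 measured genes in grey and the 17 measured endothelial genes in red. Dotted lines mark 1.5-fold; Emcn, Esam and Calcrl lie below the lower line, and Cav2 lies apart at a mean log2 signal of 11.86.

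Among the junction and adhesion molecules, 5 of 7 were measured, with 3 lower, 2 higher and a median log2 ratio of -0.23. That median was -0.10 with the floor lowered to the 30th percentile or without suffixed probe sets. Emcn encodes endomucin, a sialomucin of venous and capillary endothelium. It read 172 on the array labelled knockout and 285 on the wild-type array, 1.65-fold lower (log2 ratio -0.72), in its only probe set. Its signal on the array labelled knockout was thus just above the floor. Esam, an immunoglobulin-type molecule of endothelial tight junctions that platelets also carry, read 273 on the array labelled knockout and 439 on the wild-type array, 1.61-fold lower (log2 ratio -0.68), also in its only probe set. Cd34, the sialomucin of capillary endothelium and of haematopoietic progenitors, read 503 on the array labelled knockout and 588 on the wild-type array, a log2 ratio of -0.23.

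Cdh5, the VE-cadherin that holds endothelial adherens junctions together, scarcely differed, at 280 on the array labelled knockout and 277 on the wild-type array, with a log2 ratio of 0.02. Its other probe set was below the floor on both arrays, at 69.2 on the array labelled knockout and 145 on the wild-type array. Podxl, a podocalyxin of endothelium and some epithelia, was higher by a bound of at least 1.12-fold, at 186 on the array labelled knockout and 156 on the wild-type array. Its other probe set, below the floor on both arrays, went the opposite way, at 99.9 on the array labelled knockout and 149 on the wild-type array. Pecam1, the platelet and endothelial adhesion molecule, was below the floor, at 126 on the array labelled knockout and 120 on the wild-type array. Icam2, a leukocyte ligand on endothelium, was also below it, at 11.4 on the array labelled knockout and 18.9 on the wild-type array.

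The surface receptors had 5 of 7 genes measured, with 3 lower, 2 higher and a median log2 ratio of -0.02. That median was above 0 under each of the 3 other scalings. Without suffixed probe sets it was -0.19 over the 2 genes left. Calcrl, the receptor for adrenomedullin and calcitonin gene-related peptide, read 168 on the array labelled knockout and 268 on the wild-type array, 1.596-fold lower with a log2 ratio of -0.67. Its signal on the array labelled knockout was just above the floor. The other Calcrl probe sets were below the floor on both arrays, and they went opposite ways there: one read 125 on the array labelled knockout and 45.5 on the wild-type array, the other 11.0 on the array labelled knockout and 27.8 on the wild-type array. Ramp2, the membrane partner with which Calcrl forms an adrenomedullin receptor, read 416 on the array labelled knockout and 421 on the wild-type array, a log2 ratio of -0.02. The pair thus did not show like ratios in the probe sets used. A further 2 probe sets, listed jointly for Ramp2 and Vps25 and left out by the rule, were lower on the array labelled knockout. One read 1133 on the array labelled knockout and 1570 on the wild-type array, the other 2461 on the array labelled knockout and 2806 on the wild-type array.

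Eng, endoglin, a co-receptor of the TGF-beta family, read 537 on the array labelled knockout and 513 on the wild-type array, a log2 ratio of 0.06, and its other probe set was below the floor, at 96.2 on the array labelled knockout and 50.3 on the wild-type array. Ptprb, the phosphatase that acts on VE-cadherin and the receptor Tie2, read 234 on the array labelled knockout and 299 on the wild-type array, a log2 ratio of -0.35. Another Ptprb probe set read 149, under the floor, on the array labelled knockout and 171 on the wild-type array, a bound of -0.04 in the same direction. Aplnr, the apelin receptor of veins and sprouting capillaries, read 218 on the array labelled knockout and 190 on the wild-type array, a log2 ratio of 0.20. Its other probe set, below the floor on both arrays, read 5.45 on the array labelled knockout and 64.2 on the wild-type array.

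The guidance receptor Robo4 missed the floor narrowly, at 161 on the array labelled knockout and 165 on the wild-type array. Clec14a, a lectin-type receptor of endothelium, read 94.5 on the array labelled knockout and 122 on the wild-type array. Its other probe set read 10.03 on the array labelled knockout and 1.28 on the wild-type array, so that no direction could be given for it. Mmrn2, the matrix glycoprotein that Clec14a binds, was the highest of the 17, at 255 on the array labelled knockout and 193 on the wild-type array, 1.32-fold higher with a log2 ratio of 0.40. Its other 3 probe sets, all below the floor, were also higher on the array labelled knockout, at 34.8 to 116 against 6.97 to 74.1 on the wild-type array.

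Of the other secreted products, Egfl7, a matrix factor that endothelial cells release, read 248 on the array labelled knockout and 301 on the wild-type array, a log2 ratio of -0.28. Its other 3 probe sets were below the floor and each was lower on the array labelled knockout. Vwf, the clotting factor stored in endothelium and platelets, read 22.6 on the array labelled knockout and 14.5 on the wild-type array, both below the floor.

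**Figure D3:**
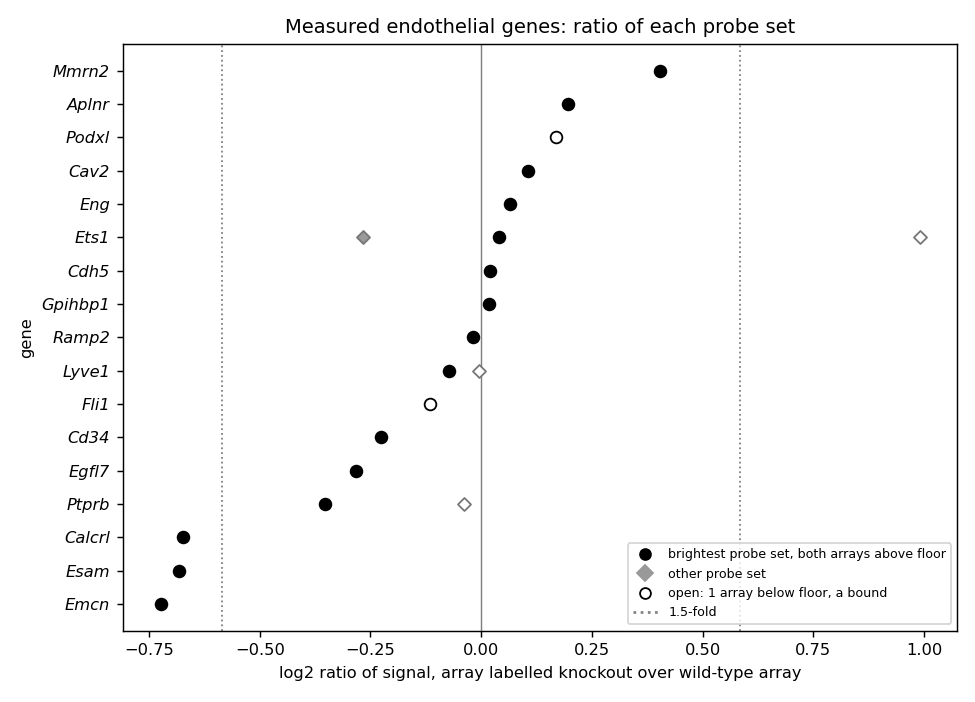
Log2 ratio of signal, array labelled knockout over wild-type array, for the 17 measured endothelial genes, with the brightest probe set as a circle, other measured probe sets as diamonds and open symbols where 1 array was below the floor. Ets1 has probe sets on both sides of 0, and the genes run from Mmrn2 at 0.40 down to Emcn at -0.72.

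Of 4 genes of capillary transport, caveolae and nitric oxide synthesis, Cav2 and Gpihbp1 were measured. Cav2, caveolin-2, which other cell types of the gland can express too, read 3852 on the array labelled knockout and 3579 on the wild-type array, a log2 ratio of 0.11, while its other probe set was below the floor at 115 on the array labelled knockout and 147 on the wild-type array. Gpihbp1, which carries lipoprotein lipase to the capillary surface, read 316 on the array labelled knockout and 312 on the wild-type array, a log2 ratio of 0.02. The endothelial nitric oxide synthase Nos3 stayed below the floor, at 125 on the array labelled knockout and 136 on the wild-type array. Plvap, which forms the diaphragms of fenestrated capillaries, read 8.80 on the array labelled knockout and 10.1 on the wild-type array. The connexins of arterial endothelium, Gja4 and Gja5, were both below the floor. Gja4 read 133 on the array labelled knockout and 135 on the wild-type array, and Gja5 read 6.57 on the array labelled knockout and 7.25 on the wild-type array.

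Of 7 transcription factors, only Fli1 and Ets1, both ETS proteins, were measured. Fli1 read 144, under the floor, on the array labelled knockout and 180 on the wild-type array, a bound of at least 1.08-fold lower. Its other probe set, below the floor, went the opposite way, at 111 on the array labelled knockout and 49.5 on the wild-type array. Ets1, which lymphocytes express as well, read 278 on the array labelled knockout and 270 on the wild-type array in its brightest probe set, a log2 ratio of 0.04. A further Ets1 probe set gave a log2 ratio of -0.27, and yet another, at 330 on the array labelled knockout and 140 on the wild-type array, was at least 1.99-fold higher. The direction of Ets1 therefore depended on the probe set.

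The ETS factor Erg, the SOX factors Sox7, Sox17 and Sox18, and Tal1 were below the floor on both arrays. Erg read 13.5 on the array labelled knockout and 12.7 on the wild-type array, Sox7 read 69.3 on the array labelled knockout and 62.2 on the wild-type array, and Sox18, at 33.4 on the array labelled knockout and 50.3 on the wild-type array, was also far under it. Tal1, a factor of blood and endothelial development, read 109 on the array labelled knockout and 142 on the wild-type array, and Sox17, of arterial endothelium, 87.1 on the array labelled knockout and 85.4 on the wild-type array. Of the lymphatic genes, Lyve1, a hyaluronan receptor that some macrophages share, read 256 on the array labelled knockout and 270 on the wild-type array, a log2 ratio of -0.07. Another Lyve1 probe set read 136, under the floor, on the array labelled knockout and 166.4, just above it, on the wild-type array. Its ratio was a bound of -0.004. Prox1, which specifies lymphatic endothelium, was below the floor, at 28.0 on the array labelled knockout and 22.6 on the wild-type array. Across the 15 genes below the floor, none of 21 probe sets reached it, and with the floor set aside their brightest probe sets were lower for 9 genes and higher for 6, with a median log2 ratio of -0.04.

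The promoters of Emcn and Calcrl, both past 1.5-fold, and of Eng, which scarcely differed, are shown because ETS and SOX factors are known to act in endothelial genes. Each is the RefSeq window of 300 bases on build GRCm38.p6, from 250 before to 50 after the transcript's start. It was searched on both strands for AGGAAG, a core of ETS sites, and AACAAT, a core of SOX sites, and capitals mark a match or its reverse complement, CTTCCT or ATTGTT.
Emcn, chr3:137340828-137341127, plus strand: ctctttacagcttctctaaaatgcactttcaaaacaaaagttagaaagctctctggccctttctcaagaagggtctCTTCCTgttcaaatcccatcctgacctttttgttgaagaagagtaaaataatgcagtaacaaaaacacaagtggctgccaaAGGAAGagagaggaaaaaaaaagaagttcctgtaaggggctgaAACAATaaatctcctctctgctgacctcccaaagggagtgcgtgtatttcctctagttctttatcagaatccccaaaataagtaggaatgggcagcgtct
Calcrl, chr2:84425217-84425516, minus strand: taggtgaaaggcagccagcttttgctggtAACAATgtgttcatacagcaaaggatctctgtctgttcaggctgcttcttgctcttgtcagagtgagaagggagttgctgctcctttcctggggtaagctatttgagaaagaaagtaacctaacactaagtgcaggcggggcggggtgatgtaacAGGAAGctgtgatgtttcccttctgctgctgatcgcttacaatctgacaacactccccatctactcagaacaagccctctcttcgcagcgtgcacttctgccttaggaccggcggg
Eng, chr2:32646345-32646644, plus strand: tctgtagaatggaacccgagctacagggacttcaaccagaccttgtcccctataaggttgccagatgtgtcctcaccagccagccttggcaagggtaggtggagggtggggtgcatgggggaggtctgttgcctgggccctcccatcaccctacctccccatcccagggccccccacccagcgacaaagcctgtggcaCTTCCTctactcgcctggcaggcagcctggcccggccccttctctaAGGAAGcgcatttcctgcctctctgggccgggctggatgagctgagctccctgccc
Counted from 1 at the 5′ end, AGGAAG or its complement began at bases 77 and 158 for Emcn, at 185 for Calcrl and at 199 and 245 for Eng. AACAAT began at base 201 for Emcn and at base 30 for Calcrl, and the Eng window held none. The table used here lists windows for 13 of the 32 genes, and 8 of these genes held the ETS letters in at least 1 window. By window the letters were in 9 of 19, or 47.4%, against 35.4% of all 32851 windows. The SOX letters were in 3 of 19, or 15.8%, against 10.7% of all windows. They were found for Emcn, Calcrl and Erg, and Erg was below the floor on both arrays. Whether these letters bear on the ratios was not tested. These shares describe letters and not occupied sites, and Emcn, Calcrl and Eng, which all hold the ETS letters, did not share a ratio.

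A list of 40 other genes known from endothelium had 39 on the array and 26 measured. Of the 26, 17 were lower on the array labelled knockout and 9 were higher. The lower ones were 65.4%, against 53.0% of all measured genes and 62.5% of those in the signal range given above for the endothelial genes. The median log2 ratio of the 26 was -0.09, which was above 0 under quantile normalization, loess and the higher floor. At 1.5-fold, 4 or 15.4% were lower, against 6.26% of all measured genes and 11.0% in that range, and 1 was higher. That range was not set from these 26 genes, and some of them, Nr2f2 included, lie outside it. Tm4sf1, a tetraspanin-like surface protein that epithelia and stroma can express too, read 327 on the array labelled knockout and 595 on the wild-type array, 1.82-fold lower. Myct1 read 122, under the floor, on the array labelled knockout and 269 on the wild-type array, at least 1.62-fold lower. Nr2f2, the venous nuclear receptor that stromal cells also express, read 3833 on the array labelled knockout and 2018 on the wild-type array, 1.899-fold higher, while 1 of its 4 other measured probe sets went the opposite way. Adgrf5, an adhesion receptor of capillaries, had a log2 ratio of 0.41. Kdr, the main VEGF receptor of endothelium, read 480 on both arrays.

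Fibroblast and smooth muscle markers had lower medians than the endothelial genes, and pericyte markers did not. All 12 fibroblast markers were lower, against 53.0% of all measured genes. Their median log2 ratio was -0.33, with summed signals of 23947 on the array labelled knockout and 29212 on the wild-type array. Of 13 smooth muscle markers 11, or 84.6%, were lower, with a median of -0.30 and sums of 55196 on the array labelled knockout and 69340 on the wild-type array. Both medians were below 0 in all 10 of the alternative settings in which they were recomputed. The 32 endothelial genes summed to 9366 on the array labelled knockout and 9645 on the wild-type array, and without Cav2 the other 31 summed to 5514 on the array labelled knockout and 6065 on the wild-type array. Pericytes, which wrap capillaries, had 8 of 8 markers measured, with 3 lower, 5 higher and a median of 0.10 that was below 0 with the floor raised to the 70th percentile or without suffixed probe sets, from Rgs5 at -0.56 to Mcam, which endothelium shares, at 0.46. What part the stromal difference had in the ratios of Emcn, Esam and Calcrl was not tested.

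**Figure D4:**
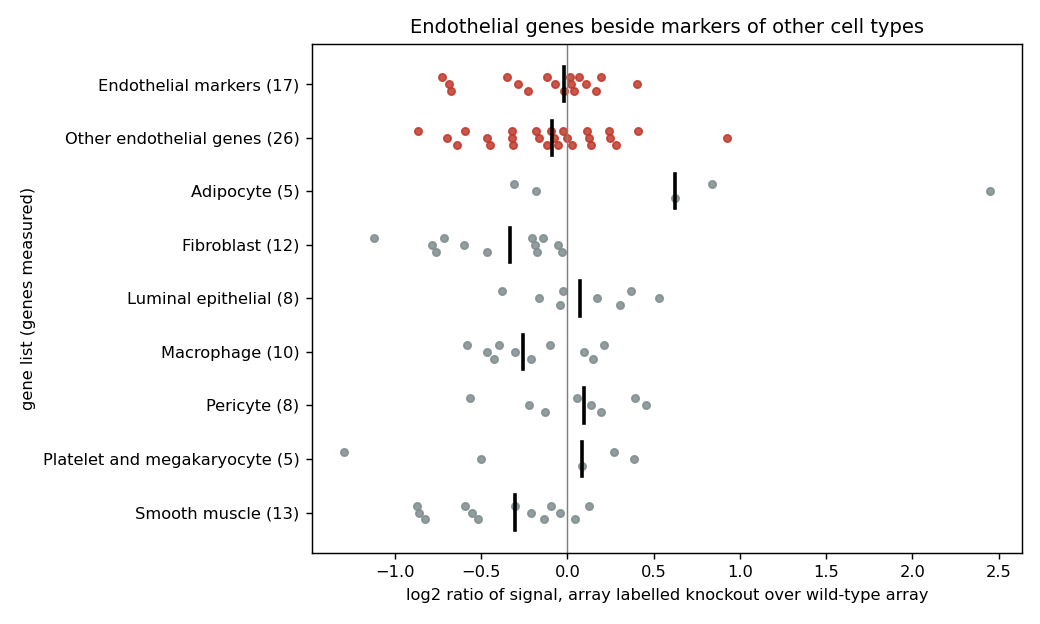
Log2 ratio of signal, array labelled knockout over wild-type array, for each measured gene of the endothelial list and of the other marker lists with at least 5 measured genes. Points are genes, black bars are medians, and numbers in brackets are genes measured; the endothelial median is -0.02, against -0.33 for fibroblast and -0.30 for smooth muscle markers.

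Blood cells share several of the endothelial genes, so their own markers were read beside them. Of 11 macrophage markers 10 were measured, with 7 lower and a median of -0.26, and sums of 6197 on the array labelled knockout and 6801 on the wild-type array. Of 7 platelet and megakaryocyte markers on the array 5 were measured, with 2 lower and 3 higher. Treml1 was at least 2.45-fold lower, Pf4 had a log2 ratio of -0.50, and Gp1bb one of 0.39. Only 2 of 7 lymphocyte markers were measured, with Cd3e, Cd79a and Cd79b below the floor on both arrays, and of 4 erythroid markers only Alas2. Without Fli1, Ets1, Cd34, Esam and Eng, measured endothelial genes that blood cells also express, the median of the remaining 12 was -0.001269. Lyve1, which some macrophages share, was kept among these 12. Of 5 adipocyte markers measured, 3 were at least 1.5-fold higher on the array labelled knockout, against 4.69% of all measured genes. Car3 was 5.47-fold and Fabp4 1.79-fold higher, and the other was a bound, its wild-type signal being under the floor. Retn and Plin4 had log2 ratios of -0.18 and -0.31. The 8 on the array summed to 3224 on the array labelled knockout and 1610 on the wild-type array, and without Car3 to 1946 on the array labelled knockout and 1376 on the wild-type array. The adipocyte median was 0.62, and 0.03 when each gene took its probe set nearest to no difference. Luminal epithelial markers had a median of 0.08 over 8 genes, which was below 0 under all 3 other choices of probe set, down to -0.09. Basal epithelial markers had one of 0.06 over the 4 measured of 7, which was -0.04 with no floor. What these cell types contribute to the endothelial ratios was not tested.

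Without replicate arrays, the spread of a ratio can be read only from different probe sets of a gene. Over 4497 genes with at least 2 probe sets that cleared the floor on each array, the log2 ratios of the brightest pair shared their sign in 55.9%, and their spread came to an SD of 0.332 per probe set. The ratios of Emcn, Esam and Calcrl were larger than this SD, and that of Ptprb at -0.35 barely so. Those of the other measured endothelial genes, except Mmrn2, were smaller. Over all 11671 measured genes the log2 ratios themselves had an SD of 0.373. The SD between probe sets pools genes of all signal levels, while Emcn and Calcrl lay just above the floor on the array labelled knockout. Emcn and Esam have a single probe set each. Passing this SD therefore does not set these genes apart from noise. The SD between probe sets holds whatever differs between probe sets of a gene on the same 2 arrays, and the variation between mice or between dissections is not in it.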

How the data were processed

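Total RNA of the ventral prostate was hybridised to 2 Affymetrix arrays of 45101 probe sets, 1 for each genotype. The deposited values are probe-set intensity on a linear scale, made with GCOS 1.4 per the submitters' processing notes, with settings not given in the sources used here. Both arrays had a trimmed mean of 500.0 after removal of 2% at each end. Of 45037 non-control probe sets, 34945 had 1 gene symbol in the platform annotation, 932 several and 9160 none. Only the first kind was used, which left out 2 probe sets listed jointly for Ramp2 and Vps25. All 32 symbols matched RefSeq through Entrez IDs. The probe set with the highest mean of the log2 signals stood for a gene. The floor was the 50th percentile of pooled signals. Differences are log2 of knockout over wild-type signal, with no pseudocount. Probe sets whose names end in _s_at, _x_at or _a_at are called suffixed.

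The genes and lists were chosen with earlier results of these data known. All 32 genes were named, with up to 2 genes at each end of other lists, and Kdr, Cd3e, Cd79a and Cd79b were added after their values were seen. Alternatives changed scaling, floor, pseudocount, probe set or fold. Calculations were tested on simulated data in Python 3.11.15. The number of arrays limits the precision.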

Additional observations from a re-analysis of the deposited data

How the results depend on the processing

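No paired analysis was possible because each genotype had 1 array. The median log2 ratio of the measured endothelial genes was 0.0618 under quantile normalization and -0.13 as a mean. The number measured was 5 for a 70th-percentile floor and 32 with none. The number lower was 14 for a 30th-percentile floor, 3 at the 70th and 18 with none, and the number higher 2 at the 70th, 14 with none and 5 without suffixed probe sets. At 1.5-fold, the number lower was 0 under quantile normalization, 1 under loess, 0 for a 70th-percentile floor, 5 with none and 1 without suffixed probe sets, and at 2-fold and 3-fold it was 0. With a pseudocount of 50, 2 genes were at least 1.5-fold lower, and Calcrl, at -0.55, was not among them. The number at least 1.5-fold higher was 1 with no floor. For the other endothelial genes, the median was 0.0239 under quantile normalization, 0.0145 under loess and 0.0260 at the 70th-percentile floor, where 5 were lower. At 1.5-fold, the number lower was 2 under loess, 8 for a 30th-percentile floor, 1 at the 70th and 10 with none. The number higher was 2 for a 30th-percentile floor, 4 with none, and 0 with the median over probe sets or the one closest to no change. A higher, lower or absent floor changes how many genes are measured. Leaving out suffixed probe sets leaves Emcn, Calcrl, Eng, Egfl7 and Aplnr unmeasured and moves Ets1 to a probe set with a lower signal on the array labelled knockout. Otherwise the cause was not tested. Of 153 recomputed log2 ratios of single endothelial genes, 152 stayed within the SD between probe sets and 1, that of Esam for a 70th-percentile floor, did not, at -0.07. Many of them could not move. A lower or absent floor leaves a gene above the floor on both arrays as it was, and another choice of probe set can do so where only 1 is measured. Staying within the SD also allowed a change of sign, as for Ets1, at 0.04 and, without suffixed probe sets, -0.27. Signals near the floor, with no replicate array, limit what can be said of any of these genes.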
